A study of Mus musculus with 8 samples.

Results

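The 10 glycolytic enzyme genes described here are Hk1, Hk2, Pfkl, Pfkp, Aldoa, Aldoc, Tpi1, Pgam1, Pkm and Ldha. They were taken by name from the array's probe table, where Pkm stands under its older symbol Pkm2, and they carry 16 of the 55681 probes on the array. All 16 probes were tested, among 29078 tested probes that represent 21743 genes, and the position given for each probe lies on the chromosome of its gene. The series profiled messenger RNA of mouse cells on day 6 of a neural induction from embryonic stem cells, a protocol that yields neural progenitor cells, which the labels call RGC-like. Of the 8 samples, 4 came from cells expressing a control short hairpin RNA and 4 from cells in which such a hairpin targets Zrf1, whose current symbol is Dnajc2 and whose product is a ribosome-associated J-domain chaperone that also acts on chromatin. The sources used here do not give the stem cell line, the hairpin sequences or the number of clones or cultures behind the 8 samples, and p-values measure the spread between these samples, which may be technical.

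Glycolysis splits glucose into pyruvate in the cytosol and yields ATP without oxygen. Hexokinases (Hk1, Hk2) trap glucose in the cell as glucose 6-phosphate, phosphofructokinase (the liver subunit Pfkl, the platelet subunit Pfkp) makes the committed step to fructose 1,6-bisphosphate, and aldolases (Aldoa, Aldoc) cut that sugar into triose phosphates, which triosephosphate isomerase (Tpi1) interconverts. Phosphoglycerate mutase (Pgam1) and pyruvate kinase (Pkm) act near the end, and lactate dehydrogenase A (Ldha) turns pyruvate into lactate. Embryonic stem cells and proliferating progenitors are known for high glycolytic flux, and neuronal differentiation for a lower one.

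Levels are log2 of the processed spot intensity minus the 75th percentile of the same array, so that 0 is that percentile. A change is the knockdown mean minus the control mean on this log2 scale, tested with limma over all tested probes with Benjamini-Hochberg adjustment, and called at an adjusted p under 0.05. The knockdown itself was seen on the arrays: the Dnajc2 probe read 1.87 ± 0.11 in control cells and -2.32 ± 0.23 in knockdown cells on the log2 scale (SD, n = 4 each), 18.3-fold lower. Between 53.4% and 60.3% of the 59305 spots of an array were well above background and none was saturated. The knockdown came with other large shifts in cell type markers, given here as the summed signal of each list in multiples of the 75th percentile. The sum of 8 neural progenitor markers, all of them detected in the control cells, lay between 97.3 and 108 on control arrays and between 22.6 and 24.3 on knockdown arrays, and 7 of the 8 fell. Endoderm markers summed to 1.69 to 2.08 in control and 8.39 to 9.21 in knockdown cells, and all 7 that were tested rose. Of all tested genes, 29.1% were called higher and 28.5% lower. Gata4, Cubn and Ttr were well above background on 3 of 4 control arrays each, and Afp on none. A probe was tested if well above background on all arrays of a group, so these genes were tested through the knockdown arrays only. Apoa1, also listed, was well above background on no array and was not tested. Pluripotency markers went from 53.6 to 59.2 down to 19.7 to 21.6, with 3 of 5 lower and 1 higher. Fibroblast or feeder markers summed to 33.6 to 36.9 in control and 28.5 to 31.1 in knockdown cells, with 3 of 5 higher and 1 lower. This sum fell through Fn1 only, the brightest of them, which was 1.36-fold lower. Thy1 was 15.8-fold, Col1a1 2.69-fold and Pdgfrb 1.65-fold higher, and Col1a2 was not called. In such bulk samples, fewer cells of a type and less RNA per cell cannot be told apart, and the part of these marker shifts in the results below was not tested.

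Enzymes of the same pathway moved in opposite directions after Zrf1 knockdown. By the brightest probe of each gene, 3 of the 10 enzymes rose (Pfkp, Aldoa and Aldoc), 4 fell (Pfkl, Pgam1, Pkm and Ldha) and 3 did not pass the test (Hk1, Hk2 and Tpi1). Over all tested genes, 29.1% were called higher and 28.5% lower, 57.6% in all, so 7 of 10 enzymes called, or 70%, has to be read against a background in which most genes were called. By probe the count was 5 higher and 6 lower of 16, against 29% higher and 28.1% lower, 57.1% in all, of the tested probes. The groups did not overlap for 7 of the 10 genes, against 55% of all tested genes. The median change of the 10 enzymes was -0.14, against 0.04 over all tested genes. All 3 enzymes that rose kept their direction and their call under each of the 5 ways of scaling the arrays, 1 of which, division by the median, lowered the change of the median gene from 0.04 to -0.13 and the share of higher genes among the calls from 50.5% to 37.3%.

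**Figure D1:**
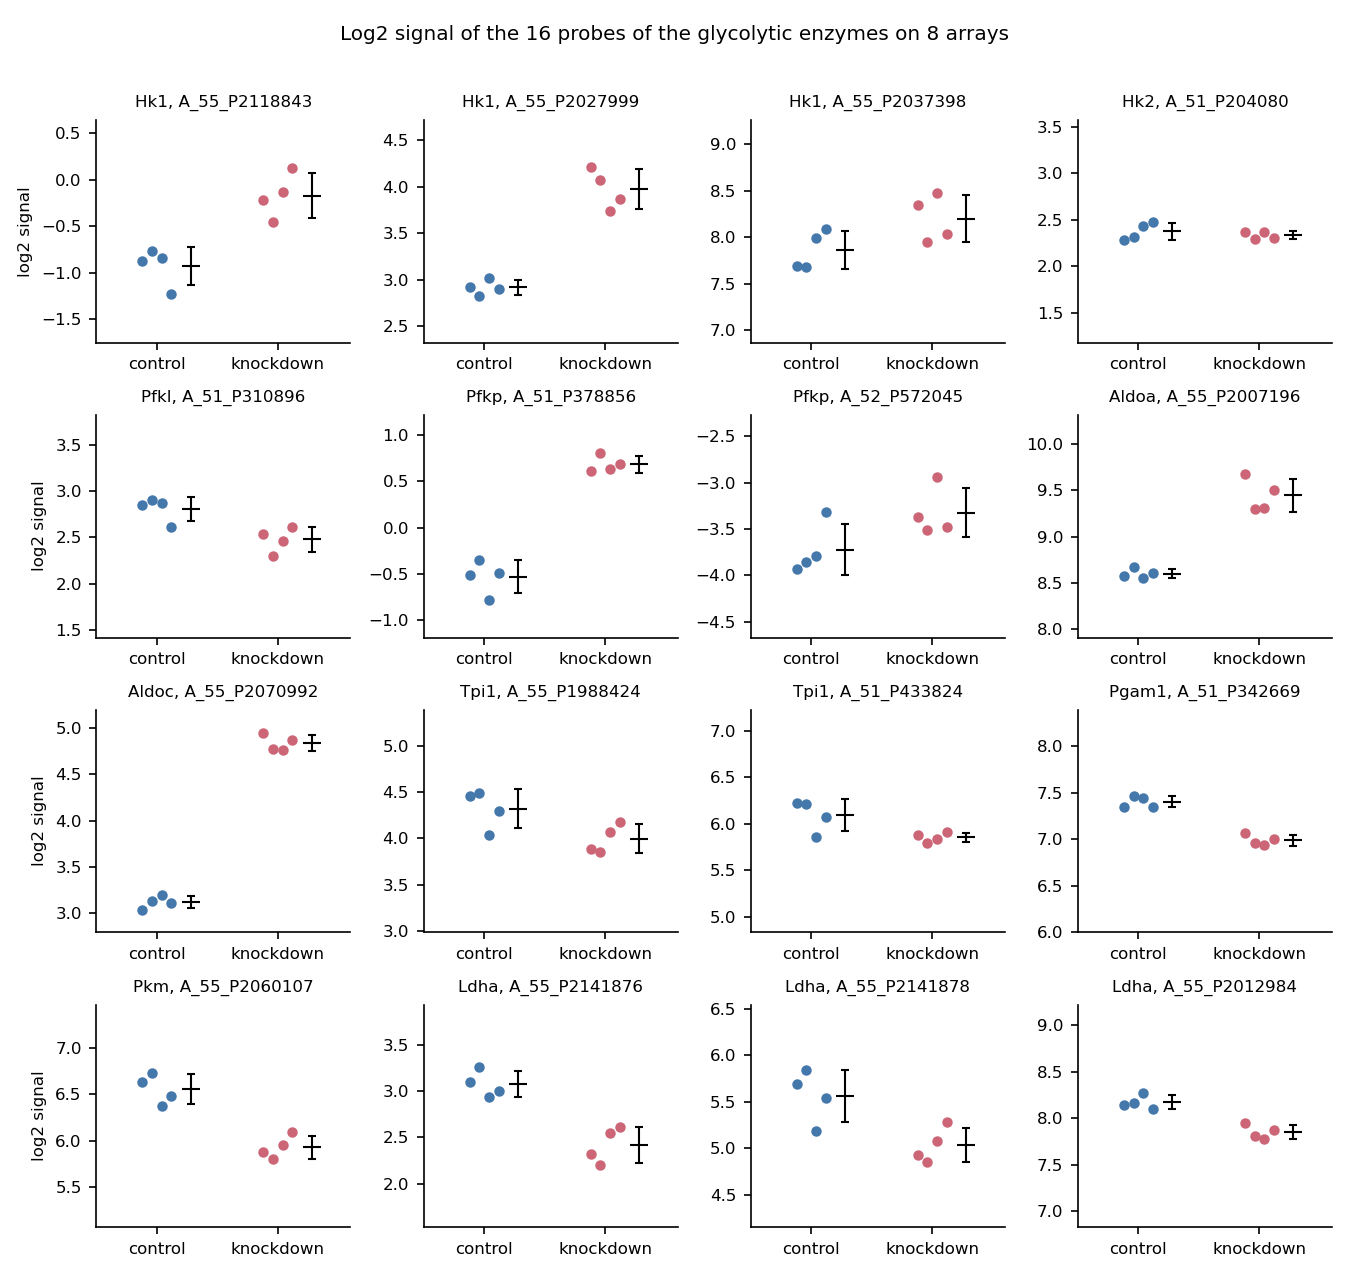
Log2 signal relative to the 75th percentile of the array (vertical axes) for the 16 probes, 1 panel per probe, with 1 point per array for the 4 control (blue) and 4 knockdown (red) samples; the bar beside each group is the mean and its whiskers are ± 1 SD, and panels differ in position but span the same range of log2 units. The widest gap is that of Aldoc, with control arrays between 3.04 and 3.20 and knockdown arrays between 4.76 and 4.95, and the 5 probes that fell without overlap show narrower gaps.

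Among the hexokinases, the 3 probes of Hk1 disagreed over the call and Hk2 did not pass the test. Hk1 is the broadly expressed hexokinase of brain. Its probe A_55_P2027999, at mm9 chr10:61731856-61731915, read 2.92, 2.83, 3.02 and 2.90 on control arrays 1 to 4 and 4.22, 4.08, 3.74 and 3.87 on knockdown arrays 1 to 4. Every knockdown array lay above every control array, and the signal was 2.08-fold higher (change 1.06, SE 0.11, limma adjusted p = 7.16e-05). Another Hk1 probe, A_55_P2118843 at chr10:61732717-61732776, read -0.87, -0.77, -0.84 and -1.23 in control and -0.22, -0.46, -0.13 and 0.12 in knockdown cells. These groups did not overlap either, and the signal was 1.69-fold higher (change 0.76, SE 0.15, adjusted p = 0.00236). The brightest Hk1 probe, A_55_P2037398 at chr10:61731230-61731288, read 7.69, 7.68, 7.99 and 8.08 in control and 8.35, 7.95, 8.48 and 8.04 in knockdown cells. Here the groups overlapped, and the difference of 0.34 (SE 0.15) missed the threshold (adjusted p = 0.0870). By the rule that the brightest probe stands for a gene, Hk1 is therefore not called, although its other 2 probes are, and with the mean of its 3 probes it was called higher (change 0.72, adjusted p = 6.77e-05). With median scaling the difference of the brightest probe was 0.17 (adjusted p = 0.487). The test of unequal change between the Hk1 probes, 1 of 8 such tests within genes that were chosen after the values were seen, gave p = 0.0286 for the widest pair by an exact permutation test over the 8 arrays, the smallest it can give, and 0.114 after adjustment over the 8. The same values were reached by the pair of Pfkp probes described below. Hk2, the hexokinase associated with proliferating and glycolytic cells, had a single probe at chr6:82675056-82675115 with 2.28, 2.32, 2.43 and 2.48 in control and 2.37, 2.29, 2.37 and 2.30 in knockdown cells. Its knockdown values all lay inside the control range. The difference was -0.04 (SE 0.07, adjusted p = 0.627), and its sign turned under quantile normalization (0.07) and in the authors' values (0.07).

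The 5 probes shown as sequence were picked because their letters can be read through as protein, and they tell which transcript stretch was measured. Their place in the gene was not checked against a gene model of this build, and an open frame over so short a stretch does not establish it. Each is 60 bases long, is given 5′ to 3′ in the sense of the messenger RNA as the array's probe table has it, and has at least 1 reading frame without a stop codon.
Hk1, A_55_P2118843, chr10:61732717-61732776, minus strand: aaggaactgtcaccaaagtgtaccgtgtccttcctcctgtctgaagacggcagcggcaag
Pfkp, A_51_P378856, chr13:6581718-6583872, minus strand: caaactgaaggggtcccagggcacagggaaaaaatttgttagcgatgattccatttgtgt
Tpi1, A_55_P1988424, chr6:124761923-124761982, minus strand: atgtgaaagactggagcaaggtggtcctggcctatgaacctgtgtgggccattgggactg
Ldha, A_55_P2141876, chr7:54103010-54103069, plus strand: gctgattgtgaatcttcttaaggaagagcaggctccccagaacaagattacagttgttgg
Ldha, A_55_P2141878, chr7:54107294-54107353, plus strand: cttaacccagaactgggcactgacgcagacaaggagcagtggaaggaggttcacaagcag
The Pfkp probe maps across a stretch longer than its own 60 bases, which means that it joins exons on either side of an intron, and both Ldha probes lie upstream of another Ldha probe near the end of the transcript. Several of these genes have near-identical processed copies elsewhere in the mouse genome, and whether a probe also matches such a copy was not analysed here.

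The phosphofructokinase subunits moved apart, with Pfkp higher and Pfkl lower. The exon-spanning Pfkp probe A_51_P378856 read -0.51, -0.35, -0.77 and -0.49 in control and 0.61, 0.81, 0.63 and 0.69 in knockdown cells. All 4 knockdown arrays lay above the 75th percentile of their array and all 4 control arrays below it. The signal was 2.32-fold higher in knockdown cells (change 1.21, SE 0.10, limma adjusted p = 1.91e-05), with changes of 0.96, 1.35 and 1.19 on slides 1, 2 and 3. The second Pfkp probe, A_52_P572045 at chr13:6579124-6579183, was near background, being well above it on 3 of 4 control and 4 of 4 knockdown arrays. It read -3.93, -3.86, -3.79 and -3.31 in control and -3.37, -3.51, -2.94 and -3.48 in knockdown cells. The groups overlapped through control array 4, the difference of 0.40 (SE 0.17) was not called (adjusted p = 0.0843), and without that array it was (0.53, adjusted p = 0.0195). In the authors' values the difference was 0.05 (adjusted p = 0.742). Pfkl, with its probe at chr10:77450926-77450985, read 2.85, 2.90, 2.87 and 2.61 in control and 2.54, 2.31, 2.46 and 2.61 in knockdown cells. The lowest control and the highest knockdown array both round to 2.61, and the groups touched without crossing. Pfkl was 1.26-fold lower (change -0.33, SE 0.10, adjusted p = 0.0178). That call did not hold under quantile normalization (-0.22, adjusted p = 0.0911), in the authors' values (-0.22, adjusted p = 0.0850), without a filter on dim probes (adjusted p = 0.0617) or without control array 2 (-0.30, adjusted p = 0.0521). Within an array, the log2 difference between Pfkp and Pfkl rose by 1.54 with knockdown, a 2.91-fold shift of their ratio. An exact two-sided permutation test over the 8 arrays gave p = 0.0286, the smallest possible, and 0.0381 after adjustment over the 4 pairs of same-step genes compared.

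Both aldolases rose, and Aldoc changed most among the 10 enzymes. Aldoc is the aldolase of brain, used as a marker of astrocytes and of some neurons. Its probe, at chr11:78140198-78140257, read 3.04, 3.14, 3.20 and 3.12 in control and 4.95, 4.77, 4.76 and 4.86 in knockdown cells. The distance between the groups was many times the spread within either, and the signal was 3.28-fold higher (change 1.71, SE 0.07, limma adjusted p = 5.50e-07). Within slides 1, 2 and 3 the change was 1.81, 1.61 and 1.82. Aldoa, the aldolase of muscle and of most dividing cells, was read by a probe at chr7:133938816-133938875 at 8.58, 8.67, 8.56 and 8.60 in control and 9.67, 9.29, 9.31 and 9.51 in knockdown cells. Control arrays lay between 8.56 and 8.67 and knockdown arrays spread wider, above all of them. Aldoa was 1.80-fold higher (change 0.84, SE 0.10, adjusted p = 1.13e-04). The rise of Aldoc exceeded that of Aldoa by 0.87 log2 units, or 1.83-fold (exact permutation p = 0.0286, adjusted p = 0.0381 over the 4 pairs). Of 5 other astrocyte markers listed, Gfap and S100b were not tested because neither group had them well above background on all arrays, Slc1a2 was lower, and on no knockdown array was it well above background, Aldh1l1 was 2.08-fold higher, and Aqp4 missed the threshold (0.75, adjusted p = 0.101). The 3 tested astrocyte markers summed to 0.806 to 1.01 times the 75th percentile on control arrays and 1.28 to 1.73 times on knockdown arrays. This sum rose mainly through Aldh1l1, which went from -0.66 to 0.40 on the log2 scale. The part of these markers in the rise of Aldoc was not tested. Of the muscle markers, whose tissue uses Aldoa, Actc1, Myl7 and Tnnt2 were tested and all 3 were called higher, against 29.1% of all tested genes. Their sums were 0.359 to 0.541 in control and 2.61 to 2.86 in knockdown cells. Myl7 was well above background on 2 of 4 control arrays. Myog, also listed, was so on no array and was not tested. The part of these markers in the rise of Aldoa was not tested.

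Tpi1 was not called in either of its probes, and how far it lay from the threshold varied with the scaling. A_51_P433824, at chr6:124760947-124761006, read 6.22, 6.22, 5.86 and 6.07 in control and 5.87, 5.80, 5.83 and 5.91 in knockdown cells. The other probe, A_55_P1988424, read 4.46, 4.49, 4.03 and 4.29 in control and 3.89, 3.85, 4.07 and 4.18 in knockdown cells. In both probes control array 3 was the low one of its group and fell among the knockdown arrays. The differences were -0.24 (SE 0.09, limma adjusted p = 0.0551) and -0.32 (SE 0.12, adjusted p = 0.0562). Without control array 3 both were called lower, at -0.32 (adjusted p = 0.00602) and -0.42 (adjusted p = 0.0121), as they were with median scaling, at -0.41 (adjusted p = 0.00820) and -0.49 (adjusted p = 0.0112), and with normexp background correction. Under quantile normalization they were at -0.13 (adjusted p = 0.435) and -0.22 (adjusted p = 0.254), and in the authors' values at -0.15 (adjusted p = 0.333) and -0.21 (adjusted p = 0.227). The changes of the 2 probes differed by -0.08, within the spread between arrays (exact permutation p = 0.314).

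Pgam1 and Pkm, which act near the end of the pathway, both fell. The Pgam1 probe at chr19:41992898-41992957 read 7.35, 7.46, 7.44 and 7.35 in control and 7.07, 6.95, 6.93 and 7.0 in knockdown cells. The groups were tight and well apart, and Pgam1 was 1.33-fold lower (change -0.41, SE 0.06, limma adjusted p = 7.10e-04). Pkm, the pyruvate kinase of brain, muscle and dividing cells, read 6.63, 6.73, 6.38 and 6.48 in control and 5.88, 5.80, 5.96 and 6.09 in knockdown cells on its probe at chr9:59526867-59526926. Every control array exceeded every knockdown array, and Pkm was 1.54-fold lower (change -0.62, SE 0.10, adjusted p = 9.41e-04), with -0.86, -0.55 and -0.54 on slides 1, 2 and 3. Pkm makes the M1 and M2 isozymes by a choice between mutually exclusive exons, a choice that Ptbp1, Hnrnpa1 and Hnrnpa2b1 are known to steer toward M2. This 1 probe was not tested for telling the isoforms apart. Of the 4 splicing factors listed for this choice, 3 fell and none rose. That is 75% called, against 57.6% of all tested genes, of which 28.5% were lower. Srsf3 was 1.62-fold lower, Hnrnpa2b1 1.47-fold lower (change -0.56, limma adjusted p = 2.36e-04) and Ptbp1 1.26-fold lower (change -0.34, adjusted p = 0.0162). Hnrnpa1 missed the threshold on its brightest probe (-0.34, adjusted p = 0.183), although its other probe was called lower. The call of Ptbp1 did not hold under quantile normalization (adjusted p = 0.146) or in the authors' values (adjusted p = 0.0971).

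Ldha fell in all 3 of its probes. From the start of the transcript to its end, A_55_P2141876 read 3.1, 3.26, 2.94 and 3.00 in control and 2.32, 2.20, 2.55 and 2.61 in knockdown cells. The middle probe, A_55_P2141878, read 5.70, 5.84, 5.18 and 5.54 against 4.93, 4.86, 5.08 and 5.28. The last and brightest, A_55_P2012984 at chr7:54110937-54110996, read 8.15, 8.17, 8.27 and 8.10 against 7.95, 7.81, 7.77 and 7.88. The first and the last probe separated the groups, and the middle one did not, since control array 3 read below knockdown array 4. The signals were 1.57-fold (limma adjusted p = 0.00149), 1.44-fold (adjusted p = 0.0185) and 1.25-fold lower (adjusted p = 0.00439). The call of the middle probe did not hold under quantile normalization (-0.42, adjusted p = 0.0847), without the filter on dim probes (adjusted p = 0.0508), or without knockdown array 1 (adjusted p = 0.0509) or 2 (adjusted p = 0.0519). The change of the brightest probe was -0.32, and -0.49 with median scaling. No pair of Ldha probes differed in its change beyond the spread between arrays, the widest difference being -0.33 (exact permutation p = 0.0857, adjusted p = 0.229 over the 8 probe pairs). Ldhb, the partner subunit that favours the turn of lactate to pyruvate, was 1.17-fold lower (change -0.22, adjusted p = 0.0230). Ldha minus Ldhb shifted by -0.10, which was not larger than the spread between arrays (exact permutation p = 0.314), and by -0.36 under quantile normalization (p = 0.0286). The call of Ldhb was lost under quantile normalization (-0.08, adjusted p = 0.459) and in the authors' values (-0.07, adjusted p = 0.479).

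The 3 slides carried equal numbers of control and knockdown arrays each, 1 and 1 on slides 1 and 3 and 2 and 2 on slide 2, so that a slide term leaves the changes as they are. All 11 called probes of the 10 enzymes changed in the same direction within each of the 3 slides. For 10 of these probes the groups did not overlap, which by itself fixes the direction on every slide. With the slide as a block all 11 remained called, and both Tpi1 probes joined them (adjusted p = 0.0409 and 0.0466).

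**Figure D2:**
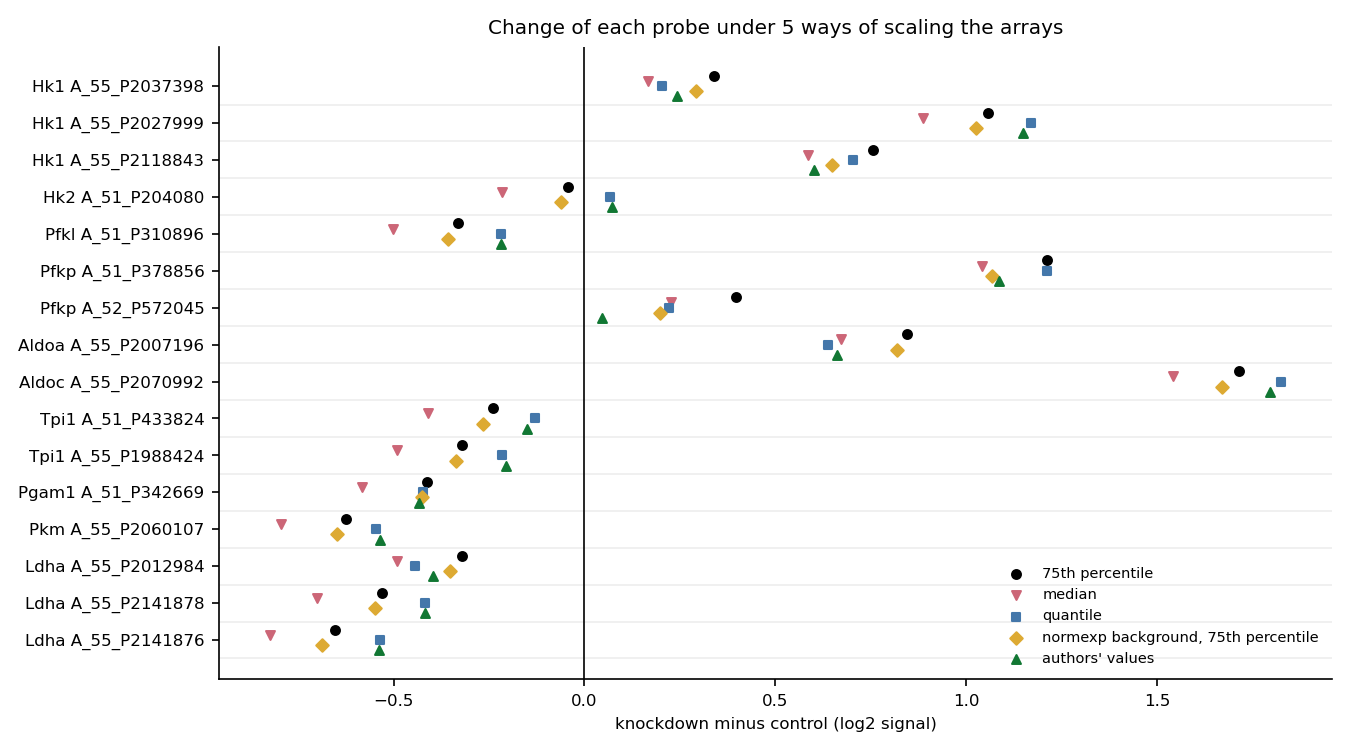
Change of each of the 16 probes (horizontal axis, knockdown minus control in log2 units) under 5 ways of scaling the 8 arrays, 1 symbol per scaling. Symbols of Pfkp A_51_P378856, Aldoa, Aldoc and the Hk1 probes all lie right of 0 and those of Pfkl, Tpi1, Pgam1, Pkm and Ldha left of it, and Hk2 alone has symbols on both sides, from -0.21 with median scaling to 0.07 in the authors' values.

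Promoters were read because several of these enzymes are known targets of HIF, whose response element holds the core ACGTG or GCGTG, and of MYC, which binds the E-box CACGTG. Windows of 300 bases around each annotated start, 32851 in all from RefSeq on GRCm38.p6, were searched on both strands, and each of the 10 genes had at least 1 window, 16 together. ACGTG stood in 8 of the 16 windows (7 genes), against 19.6% of all windows. GCGTG stood in 8 (6 genes), against 32.4%, and 12 windows of 9 genes held either core, against 43.8%, all genes but Tpi1. The E-box CACGTG, each copy of which also counts as ACGTG, was found in 1 window, that of Ldha, against 7.15%, and TGATGNAA, the core of the C/EBP and ATF4 composite element, in none of the 16, against 3.97%. These are matches of letters, not measured binding, and windows of 1 gene overlap. The shares are over windows, some genes have more windows than others, and the CG content of the windows was not matched. The 250 bases before the start are given for the enzymes that rose most, Aldoc and Pfkp, and for Ldha and Pgam1, which fell, so that the windows can be compared. Capitals mark ACGTG and GCGTG or their reverse complements CACGT and CACGC, with the whole E-box in capitals where it stands.
Aldoc, chr11:78322823-78323072, plus strand: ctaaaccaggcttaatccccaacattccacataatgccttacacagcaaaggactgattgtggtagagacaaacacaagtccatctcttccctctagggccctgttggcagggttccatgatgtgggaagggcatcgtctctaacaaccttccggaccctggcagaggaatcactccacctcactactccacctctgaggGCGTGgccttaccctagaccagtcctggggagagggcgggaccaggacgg
Pfkp, chr13:6648772-6649021, minus strand: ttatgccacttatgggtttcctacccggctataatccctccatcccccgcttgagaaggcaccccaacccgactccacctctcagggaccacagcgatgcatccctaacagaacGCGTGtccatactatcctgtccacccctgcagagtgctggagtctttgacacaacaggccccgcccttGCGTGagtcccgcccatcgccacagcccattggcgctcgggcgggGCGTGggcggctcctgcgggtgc
Ldha, chr7:46845554-46845803, plus strand: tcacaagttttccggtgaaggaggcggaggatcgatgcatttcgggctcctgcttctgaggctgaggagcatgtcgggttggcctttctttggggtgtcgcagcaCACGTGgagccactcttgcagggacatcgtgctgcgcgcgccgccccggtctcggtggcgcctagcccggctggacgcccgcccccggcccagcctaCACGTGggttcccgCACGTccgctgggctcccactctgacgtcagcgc
Pgam1, chr19:41911621-41911870, plus strand: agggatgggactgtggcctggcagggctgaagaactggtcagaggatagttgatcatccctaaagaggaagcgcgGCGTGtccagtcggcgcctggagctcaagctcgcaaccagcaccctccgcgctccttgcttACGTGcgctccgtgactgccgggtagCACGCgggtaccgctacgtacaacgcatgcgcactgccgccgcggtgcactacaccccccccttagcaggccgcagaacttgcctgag
Cores were thus present both in windows of enzymes that rose and in windows of enzymes that fell. Pkm, which fell most by its brightest probe, is not among the 4 genes shown. Its upstream window held neither core, and its other window held 2 copies of ACGTG. In these 250 bases Pfkp had 3 copies of GCGTG and none of ACGTG, Ldha 5 of ACGTG, 4 of them the paired strands of its 2 E-boxes, Pgam1 1 of ACGTG and 2 of GCGTG, and Aldoc 1 of GCGTG. The counts depend on the cut. Over all 300 bases of the same windows, Aldoc had 1 of ACGTG and 2 of GCGTG, and Ldha 5 and 2. Pfkp had 4 of GCGTG there, and the counts of Pgam1 stayed the same.

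Of the 17 other enzymes of the pathway on the list, 13 were tested, 9 rose, 2 fell and 2 did not pass, with a median change of 0.43. That is 84.6% called, against 57.6% of all tested genes. With median scaling 6 rose and 2 fell (median 0.26). The largest rise belonged to the hexokinase-like gene Hkdc1, which went from -2.85 ± 0.11 to 1.15 ± 0.11, 16-fold higher (limma adjusted p = 5.02e-08). With normexp background correction it was 8.57-fold higher, and in the authors' values 8.35-fold. Eno2, the enolase of neurons, went from -0.64 ± 0.07 to 2.00 ± 0.08, 6.25-fold higher (adjusted p = 9.54e-08). The 5 neuron markers summed to 7.33 to 8.90 in control and 9.71 to 10.6 in knockdown cells, with 3 lower and 1 higher. This sum rose through Stmn2 only, which was 4.75-fold higher. Tubb3 was 7.52-fold and Map2 1.66-fold lower, and Dcx was lower, with 1 of 4 knockdown arrays well above background. Elavl3 missed the threshold (-0.34, limma adjusted p = 0.0608). The part of these markers in the rise of Eno2 was not tested. Pgam2, the muscle mutase, was 2.52-fold higher and Ldhc, the testis lactate dehydrogenase, 2.37-fold higher (change 1.25, and 0.80 in the authors' values). Further genes of the list are named here although their values were seen first: the muscle enolase Eno3 was 1.30-fold higher, the muscle phosphofructokinase subunit Pfkm 1.35-fold, and glucose phosphate isomerase (Gpi1) 1.27-fold higher. Hk3 went the other way, from -0.31 ± 0.18 to -3.90 ± 0.64, with only 1 of 4 knockdown arrays well above background, so that its change of -3.59 is not a measured fold. Eno1, the enolase of most tissues, did not pass (0.08, adjusted p = 0.471). Position was a limit for a pair of genes: the only Pgk1 probe (1.79-fold higher) is placed on chromosome 3 while the gene is on X, and the brightest Gapdh probe (0.01, adjusted p = 0.909) on chromosome 7 while the gene is on 6, with 6 of the 8 Gapdh probes called lower.

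**Figure D3:**
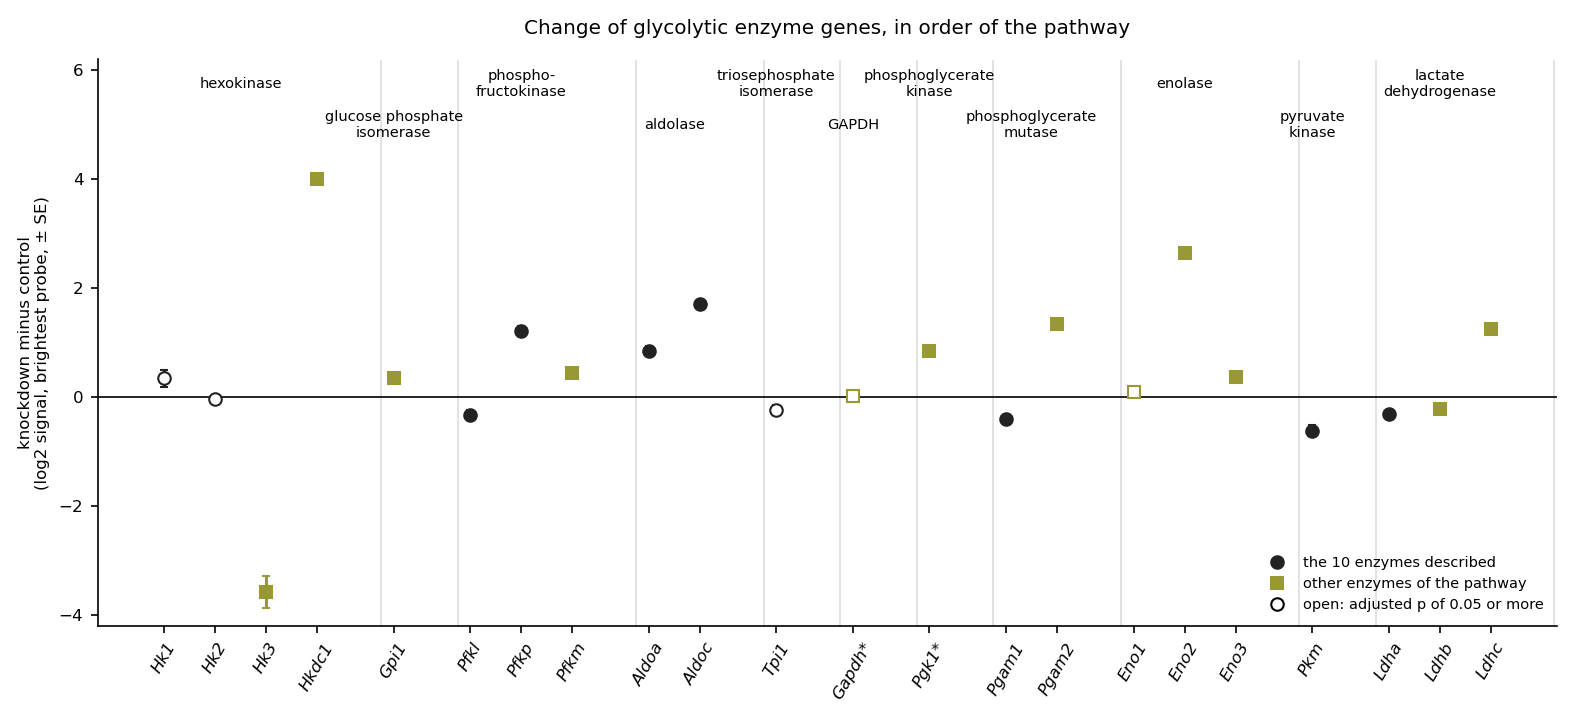
Change of glycolytic enzyme genes by their brightest probe (vertical axis, knockdown minus control in log2 units, ± SE from limma, n = 4 arrays per group), ordered along the pathway from hexokinase to lactate dehydrogenase. Black circles are the 10 enzymes described and olive squares other tested enzymes of the list, open symbols have an adjusted p of 0.05 or more, and an asterisk marks Gapdh and Pgk1, whose probe is placed on another chromosome than the gene; the hexokinase step spans the widest range, from Hk3 at -3.59 to Hkdc1 at 4.00, and both aldolases lie above 0.

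Of the genes that make or break fructose 2,6-bisphosphate, the strongest activator of phosphofructokinase, or run the reverse pathway to glucose, 11 of 12 were tested, and 7 rose and 3 fell (median 0.54), 90.9% called against 57.6% of all tested genes. The rises and the share called include Fbp1, Pck2 and Fbp2, well above background on 1, 2 and 3 of 4 control arrays. These genes were tested only because all 4 knockdown arrays, where they are high, were well above background. With median scaling 5 genes of the list rose (median 0.37), and in the authors' values 6 rose (median 0.33). Pfkfb3, the isoform with the highest kinase activity, read 1.15, 1.29, 1.17 and 1.16 in control and 3.59, 3.58, 3.59 and 3.55 in knockdown cells. It was 5.22-fold higher (limma adjusted p = 7.66e-08), in both of its probes. Pfkfb1 was 1.96-fold and Pfkfb2 1.64-fold higher. The change of Pfkfb2 was 0.71, and 0.33 in the authors' values. Fbp2, a fructose bisphosphatase of muscle, rose by 1.36 on the log2 scale from a level that was well above background on 3 of 4 control arrays, and by 0.74 with normexp background correction and 0.59 in the authors' values.

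Of 9 genes for the transport of glucose and lactate, 8 were tested, 1 rose and 3 fell, 50% called against 57.6% of all tested genes. The median was -0.23, and it moved from -0.40 with median scaling to -0.03 with normexp background correction, with no gene higher and 4 lower in the former and 2 higher and 3 lower in the authors' values. Slc2a1, which encodes the transporter GLUT1, read 6.70, 6.75, 7.02 and 6.70 in control and 5.17, 5.10, 5.01 and 4.90 in knockdown cells. It was 3.35-fold lower (change -1.75, SE 0.10, limma adjusted p = 2.36e-06). Slc2a4 (GLUT4) and Slc2a8 were 1.46-fold and 1.35-fold lower, and Bsg, the chaperone of lactate transporters, was 1.32-fold higher, a call that median scaling ended (0.23, adjusted p = 0.193). Slc2a3, the neuronal carrier GLUT3, did not pass (0.08, adjusted p = 0.429).

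Next to the pathway stand the genes for the fate of pyruvate and of glucose 6-phosphate, read against 28.5% lower and 57.6% called among all tested genes. Of 13 genes for pyruvate entry into mitochondria, 2 rose and 7 fell, 69.2% called (median -0.38). Pdhx and Dlat, subunits of the pyruvate dehydrogenase complex, were 2.52-fold and 1.73-fold lower. Among the kinases that inhibit this complex, Pdk2 was 3.50-fold higher (limma adjusted p = 1.77e-06) and Pdk3 2.00-fold lower. Of 9 genes of the pentose phosphate pathway, which makes NADPH and ribose, 5 fell and none rose, 55.6% called and thus near the share of all genes (median -0.42), although 1 was called higher under quantile normalization and in the authors' values. Those that fell included Pgd, 1.97-fold lower, Rpia, 1.67-fold, G6pdx, 1.54-fold, and Tkt, 1.42-fold lower.

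Targets and regulators of hypoxia signalling outside glycolysis were split by the brightest probe of each gene. Of 18, 7 were higher, 5 lower and 6 not called (median 0.13, and -0.04 with median scaling). That is 66.7% called, against 57.6% of all tested genes, of which 29.1% were higher and 28.5% lower. Among those not called, Epas1, Arnt, Vegfa and Bnip3 had a dimmer probe called higher, and Bnip3l a dimmer probe called lower. Ndrg1 was 3.39-fold higher (limma adjusted p = 2.30e-07), the collagen prolyl hydroxylases P4ha1 and P4ha2 were 2.32-fold and 2.22-fold higher, and the HIF prolyl hydroxylase Egln3 was 1.59-fold higher. Hif1a itself, named after its value was seen, was 1.41-fold lower on its 1 tested probe (change -0.49, adjusted p = 0.00168). Across all 7 lists, 54 of 76 tested genes were called, or 71.1%, of which 26 rose and 28 fell, against the 57.6% of all tested genes.

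**Figure D4:**
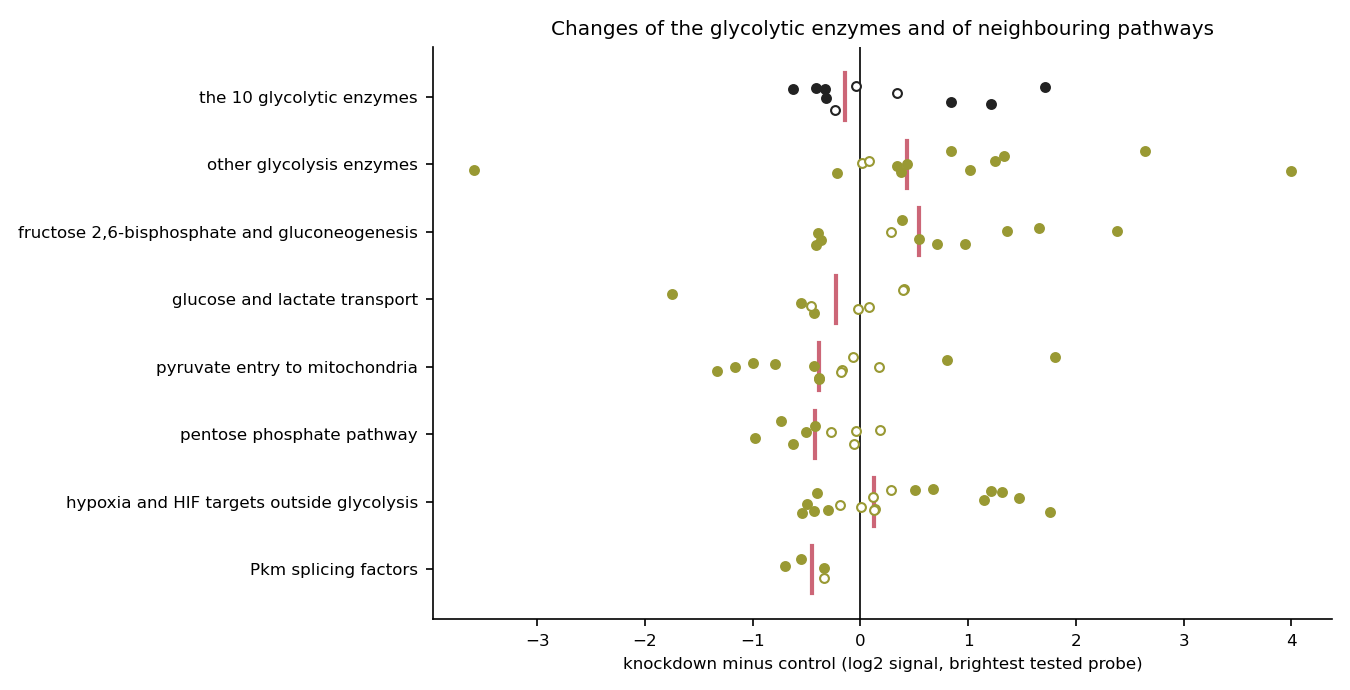
Change of each tested gene by its brightest probe (horizontal axis, knockdown minus control in log2 units) for the 10 glycolytic enzymes (black) and the 7 lists of neighbouring genes (olive), 1 row per list, with the median of each row as a red bar and open symbols for an adjusted p of 0.05 or more; vertical scatter within a row has no meaning. The median of the 10 enzymes lies at -0.14, that of the other glycolysis enzymes at 0.43 and that of the pentose phosphate pathway at -0.42, and only the pentose phosphate and splicing factor rows hold no called gene right of 0.

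Each enzyme's profile over the 8 arrays was set against that of 14653 genes with a current symbol, as a description. The arrays fall into control and knockdown, so a correlation over them includes the difference between the groups. The closest profiles were those of Zfp787 for Aldoc (r = 1.00), Lpp for Pfkp (r = 0.998), Lin52 for Aldoa (r = 0.997), Folr1 for Pgam1 (r = 0.998), Uhrf1bp1 for Ldha (r = 0.998) and Jmjd8 for Pkm (r = 0.997). For the enzymes that were not called or only narrowly called, the closest were Cdc37l1 for Tpi1 (r = 0.994), Gpsm1 for Pfkl (r = 0.986), Cd207 for Hk2 (r = 0.957) and Nol3 for Hk1 (r = 0.946).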

How the data were processed

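Messenger RNA of 8 samples, 4 control and 4 knockdown, was labelled with Cy3 and hybridised to 1-colour Agilent mouse arrays. The deposited scanner files hold spot intensity values extracted with Feature Extraction 10.7.3.1, background-corrected within each array and not scaled between arrays, per the file headers; probe positions are on mm9. The authors' deposited value table holds log2 values with a median of 7.10 in each column, and it served as an alternative. How these values were made is not given in the sources used here. On each array they correlated at r of at least 0.999987 with the scanner values after normexp background correction and quantile normalization. The authors' values and the quantile alternative are therefore not independent of each other.

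Signals were averaged over the non-outlier spots of a probe, turned into log2 and lowered by the array's 75th percentile (483 to 696 intensity units). The number of arrays, 8, limits precision. Of 55681 probes, 33 lacked a value on some array, and the 29078 that were well above background throughout a group were tested with limma 3.58.1 in R 4.3.3, two-sided. Names came from RefSeq tables for 28699 probes and otherwise from the files. The fit was also run on simulated data with independent noise and few changed probes. That setting is unlike these data, in which most tested probes were called, and no result here rests on it. Pairs of genes were compared by exact permutation tests. Members, lists and tests were chosen with earlier results of these data known. Named genes are the 10 enzymes, Dnajc2, Ldhb, Ptbp1, up to 4 called genes with the smallest p of each list, and for each enzyme the gene most correlated with it; others are named as exceptions. Some genes of the lists are counted but not reported here by name. Alternatives covered scaling, background, the filter on dim probes, slide, replicate number, probe choice and leaving out each array. File names give 2 knockdown samples the number of another knockdown sample with an unexplained suffix, so these were also averaged.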

Additional observations from a re-analysis of the deposited data

Results flagged for a closer look

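Of 90 groups of 4 arrays, 1 per group and named probe, 3 held an array that stood apart from the other 3 by Dixon's test, where chance gives about 1 in 20. Pfkfb3 read 1.29 in control replicate 2, against 1.15 to 1.17 on the other control arrays, and all knockdown arrays lay above 3.55. Slc2a1 read 7.02 in control replicate 3, against 6.70 to 6.75 in the other controls. G6pdx read 3.44 in control replicate 4, against 3.52 to 3.53. None of the 16 probes of the 10 enzymes held such an array.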

How the results depend on the processing

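The counts of the 10 enzymes held within 1.5 times under every alternative run: 3 higher (4 with the mean of all probes), 3 to 5 lower, 9 to 13 of 16 probes called and 48 to 59 genes of the 7 lists called. Leaving out 1 array in turn gave 3 higher, 3 to 5 lower, 10 to 13 probes and 52 to 56 list genes. Among the pairs of same-step genes, Hk2 minus Hk1 (-0.38) missed the threshold of 0.05 under quantile normalization (-0.13, exact permutation p = 0.343) and in the authors' values (-0.17, p = 0.0857), and ranged from -0.45 to -0.30 without 1 array, with p up to 0.0571. On slide 1 alone it was -0.61. Pfkp minus Pfkl was 1.32 on slide 1 alone and 1.44 to 1.62 without 1 array. Aldoc minus Aldoa was 0.84 to 0.91 without 1 array. Ldha minus Ldhb passed the threshold under quantile normalization (-0.36), in the authors' values (-0.33) and with the mean of all probes (-0.28), each at p = 0.0286, was 0.16 on slide 1 and -0.22 on slide 2, and was -0.15 to -0.04 without 1 array. With the slide as a block (smallest possible p 0.0833), the replicate block (0.125) or the same-numbered knockdown files averaged (0.0667), the permutation tests cannot reach the threshold, and Hk2 minus Hk1 stayed at -0.38, Pfkp minus Pfkl at 1.54 and Aldoc minus Aldoa at 0.87. Same-numbered control and knockdown samples deviated from their group means with correlations of 0.11, -0.12, 0.11 and -0.19, and nothing in the labels pairs them. In limma, the replicate block ended the calls of Pfkl (adjusted p = 0.0708), the middle Ldha probe (0.0501), Ldhb (0.0914) and Ptbp1 (0.0559), and averaging the same-numbered knockdown files ended these 4 as well. Of 998 values of 44 named probes under alternatives, 4 had the other sign, all for Hk2 (-0.04): 0.068 under quantile normalization, 0.073 in the authors' values, and 0.050 and 0.021 on slides 1 and 3 alone. Values within 1 slide have no test where it holds 1 array per group, and none was run within slide 2. The causes were not tested.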
